A study of Mus musculus with 9 samples.

Results

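The 46 genes described here encode the lysosomal proton pump, the cathepsins, and a small set of lysosomal membrane and sterol proteins. They were chosen by name. Every gene entered whose symbol begins with Atp6v0 or Atp6v1, is Atp6ap1 or Atp6ap2, is Cts followed by 1 letter, or is Lamp1, Lamp2, Lamp5, Scarb2, Npc1 or Npc2, and which had a probe set annotated to that gene alone. A probe set is the group of short array probes that reads 1 transcript, and each gene was represented by its probe set with the highest mean over the 9 arrays. The rule gave 22 pump genes (12 of the V1 sector, 8 of the V0 sector and 2 accessory proteins), 18 cathepsins and 6 membrane and sterol proteins, out of 18193 genes measured. The rule used symbols and mean signals. Atp6v0c, Atp6v1g3 and Lamp3 were not analysed here. Tcirg1, which encodes the a3 subunit of V0, has a symbol outside the rule and is not counted among the 8 V0 genes.

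The vacuolar ATPase (V-ATPase) is a rotary pump: its V1 sector, on the cytosolic side, hydrolyses ATP and turns a rotor that drives protons through the V0 sector in the membrane. The acid it makes lets cathepsins and other hydrolases work, and heavily glycosylated LAMP proteins line the inner face of the membrane. Macrophages use this compartment to digest what they engulf, and osteoclasts, which arise from the same precursors, send the pump and cathepsin K to the surface to resorb bone. Rupture of lysosomes with release of cathepsins is one of the described routes to the NLRP3 inflammasome, whose activation by organotins was the subject of the study.

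Bone marrow derived macrophages of C57BL6 mice aged 6 to 12 weeks, grown in L929-conditioned medium, were used on day 6 in vitro. All cells, those given saline included, were primed with 33 ng/mL lipopolysaccharide (LPS) for 3 h. They were then exposed for 6 h to 1.25 µM TMT OH (trimethyltin hydroxide, 3 samples), to 10 µM TET Br (triethyltin bromide, 3 samples) or to sterile saline (3 samples). The compounds carry methyl or ethyl groups on tin and were given at different doses, so a difference between them cannot be told apart from a difference in dose. The series calls the samples biological replicates. Whether they came from separate mice is not given in the sources used here, so every p-value speaks for the spread among these 9 samples alone.

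Values are log2 signals of single arrays, and a difference of 1 is a doubling. Each array correlated with the others of its group at 0.9897 to 0.9981, TMT replicate 2 lay farther from the other TMT arrays than they did from each other (SD of the differences 0.254 and 0.298, against 0.171), and the TET arrays had a narrower spread of signals (interquartile range 3.51 ± 0.05 in TET, 3.83 ± 0.04 in TMT and 3.86 ± 0.03 in saline; SD, n = 3 each). The 8 macrophage markers on the array were all at or above the median level of all genes (6.82), with summed linear signals of 71652 to 84873 in TMT, 64046 to 71232 in TET and 78447 to 81409 in saline. All 21 measured markers of dendritic, mast, B, T, NK and erythroid cells were below that median. Of 7 neutrophil markers 3 were below it, and their sums were 2451 to 3447 in TMT, 1950 to 2157 in TET and 3416 to 4033 in saline. Of 6 stromal markers 4 were below it, and their sums were 1441 to 1923 in TMT, 838 to 1067 in TET and 1237 to 1365 in saline. That sum weighs Pdgfrb most, whose mean was 8.22 in TET and 9.81 in saline. Singly, 3 stromal markers were higher in TET than in saline (Col1a1 by 0.62, Col1a2 by 0.91 and Dcn by 0.63) and 1 was lower (Pdgfrb, -1.59; limma, adjusted p under 0.05). Their median log2 difference was 0.40, so the lower sum in TET does not stand for most of these markers. The part of such cells in the results below was not tested, and fewer cells of a type and less RNA per cell cannot be told apart in bulk RNA. Probe sets differ in how well they bind, so levels were compared between groups and not between genes.

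Under TET 6 of the 12 V1 genes were higher than in saline and 0 were lower, beside 27.4% and 23.4% of all genes. In either direction the V1 share of 50% is close to the 50.8% of all genes. Of the 18 cathepsins 14 passed in neither direction, and 22.2% passed. The calls of Atp6v1b2 and Atp6v1e2 and the count of cathepsins depended on the processing, as given below. At an adjusted p under 0.05 (limma, Benjamini-Hochberg over all 18193 genes), 3 of the 22 pump genes were higher and 3 lower in TMT than in saline. That is 27.3% of them, against 27.8% of all genes (14.3% higher, 13.4% lower), so the share is no result about the pump. In TET against saline 9 pump genes were higher and 3 lower, or 54.5%, against 50.8% of all genes (27.4% higher, 23.4% lower). All 6 V1 genes that passed in TET were higher, with a median log2 difference of 0.36 over the 12 V1 genes, against 0.09 over all genes. In V0 3 of 8 were higher and 2 lower.

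Bright genes passed more often than dim ones, so the counts were also read among genes at or above the median level. Of the 16 bright pump genes, 8 were higher and 3 lower in TET than in saline, while 23.6% of all 9097 bright genes were higher and 41.3% lower (64.9% in either direction). Their median log2 difference was 0.36, against -0.19 over all bright genes. In TMT 3 of the 16 were higher and 3 lower, against 24.1% and 22.1% of all bright genes (46.2% in either direction). Between the compounds 10 pump genes were higher and 2 lower in TET than in TMT, against 28.1% and 23.7% of all genes (51.8% in either direction). Both comparisons with saline share the 3 saline arrays.

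**Figure D1:**
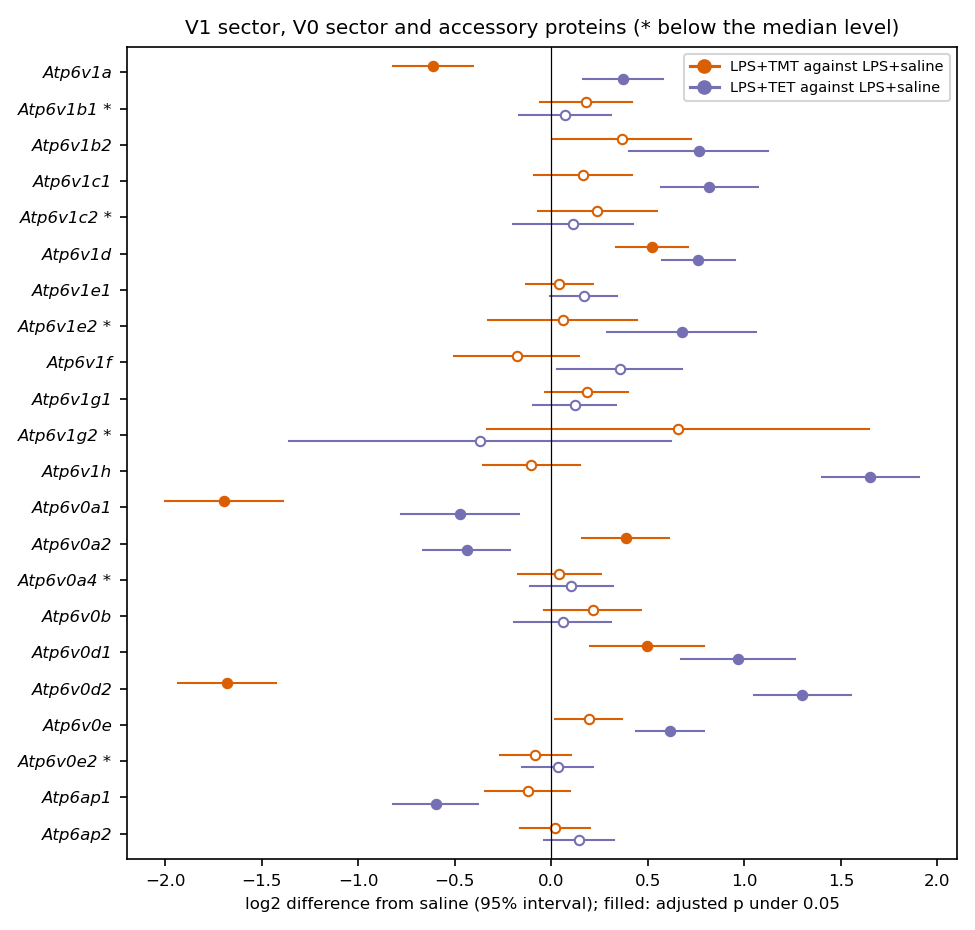
Log2 differences from saline (horizontal axis) of the 22 pump genes (rows) in TMT and in TET, with 95% intervals of the limma fit, filled points at an adjusted p under 0.05 and asterisks on genes below the median level. Atp6v0a1 and Atp6v0d2 lie lowest under TMT, and Atp6v1h and Atp6v0d2 lie highest under TET.

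In the V1 sector, the A and B subunits form the ring that hydrolyses ATP. Atp6v1a, the catalytic A subunit, read 12.33, 12.12 and 12.26 in TMT, 13.09, 13.24 and 13.32 in TET, and 12.84, 12.84 and 12.86 in saline. All TMT arrays lay below the saline arrays and all TET arrays above them. It was 1.53-fold lower in TMT (log2 -0.61, SE 0.09, adjusted p = 0.000633) and 1.29-fold higher in TET (log2 0.37, SE 0.09, adjusted p = 0.00763). A further probe set of Atp6v1a moved the same ways, by -0.80 in TMT and 0.70 in TET. Atp6v1b2, the B subunit of most tissues, read 11.44, 10.81 and 11.41 in TMT, 11.46, 11.69 and 11.70 in TET, and 10.84, 10.77 and 10.95 in saline. TMT replicate 2 lay among the saline arrays and the other TMT arrays above them. Atp6v1b2 was 1.70-fold higher in TET (log2 0.76, SE 0.16, adjusted p = 0.00292), and its difference in TMT was 0.37 (adjusted p = 0.132), or 0.57 (adjusted p = 0.00403) without TMT replicate 2. The TET call rested on 1 of its 4 probe sets: the others differed by -0.15 to 0.15, and with their mean the difference was 0.19 (adjusted p = 0.357).

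Atp6v1h, a subunit that bridges stalk and rotor and regulates the coupling of the sectors, had the largest rise of the pump in TET. It read 10.08, 9.81 and 10.06 in TMT, 11.56, 11.73 and 11.92 in TET, and 10.10, 10.06 and 10.09 in saline. The TET arrays stood apart from all others, and TMT overlapped saline. It was 3.15-fold higher in TET than in saline (log2 1.65, SE 0.11, adjusted p = 1.51e-06), and its difference in TMT was -0.10 (95% interval -0.36 to 0.15). A further Atp6v1h probe set gave 10.84, 10.49 and 10.34 in TET against 7.47, 7.43 and 7.12 in saline, or 9.30-fold, so the size of the rise depended on the probe set. The difference between TET and TMT was 1.76 (SE 0.11, adjusted p = 9.72e-07).

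Atp6v1c1 and Atp6v1d sit on the stator and the rotor. Atp6v1c1, the C subunit that is released when the sectors come apart, read 12.19, 12.46 and 12.04 in TMT, 12.89, 12.85 and 12.91 in TET, and 11.98, 12.17 and 12.04 in saline. It was 1.76-fold higher in TET (log2 0.82, SE 0.11, adjusted p = 0.000197), and its difference in TMT was 0.17 (adjusted p = 0.360). Atp6v1d, the central shaft, read 13.26, 13.40 and 13.21 in TMT, 13.57, 13.52 and 13.50 in TET, and 12.74, 12.77 and 12.79 in saline. It was the V1 gene called higher in TMT, 1.43-fold (log2 0.52, SE 0.08, adjusted p = 0.000919), and it rose 1.70-fold in TET (log2 0.76, SE 0.08, adjusted p = 4.15e-05). Its 3 probe sets gave 0.52 to 0.70 in TMT and 0.76 to 1.35 in TET.

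The other V1 genes differed less. Atp6v1e2, an isoform best known from testis, was dim in all groups (4.87 to 5.07 in TMT, 5.18 to 6.01 in TET, 4.91 to 4.99 in saline) and higher in TET by 0.67 (adjusted p = 0.00863), which ended with cyclic loess between arrays (0.48, adjusted p = 0.0564). Atp6v1f differed by 0.35 in TET (adjusted p = 0.0666), and its TET arrays (11.40 to 11.90) lay above its saline arrays (11.24 to 11.28). Atp6v1e1, a stalk subunit and paralog of Atp6v1e2, read 13.24, 13.23 and 13.24 in TMT, 13.30, 13.41 and 13.37 in TET, and 13.24, 13.20 and 13.14 in saline, with an upper 95% bound of 0.34 on its TET difference. Atp6v1g1, another stalk subunit, differed by 0.12 in TET with the same upper bound. Atp6v1b1, the B isoform of kidney and inner ear, was dim and not called, at 4.78, 4.95 and 5.08 in TMT, 4.71, 4.95 and 4.83 in TET, and 4.81, 4.66 and 4.80 in saline. Atp6v1c2 was also dim and not called, at 4.63, 4.63 and 4.63 in TMT, 4.25, 4.44 and 4.83 in TET, and 4.24, 4.47 and 4.47 in saline. Atp6v1g2 had the widest spread, with 6.05, 6.97 and 4.61 in TET, and was not called.

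**Figure D2:**
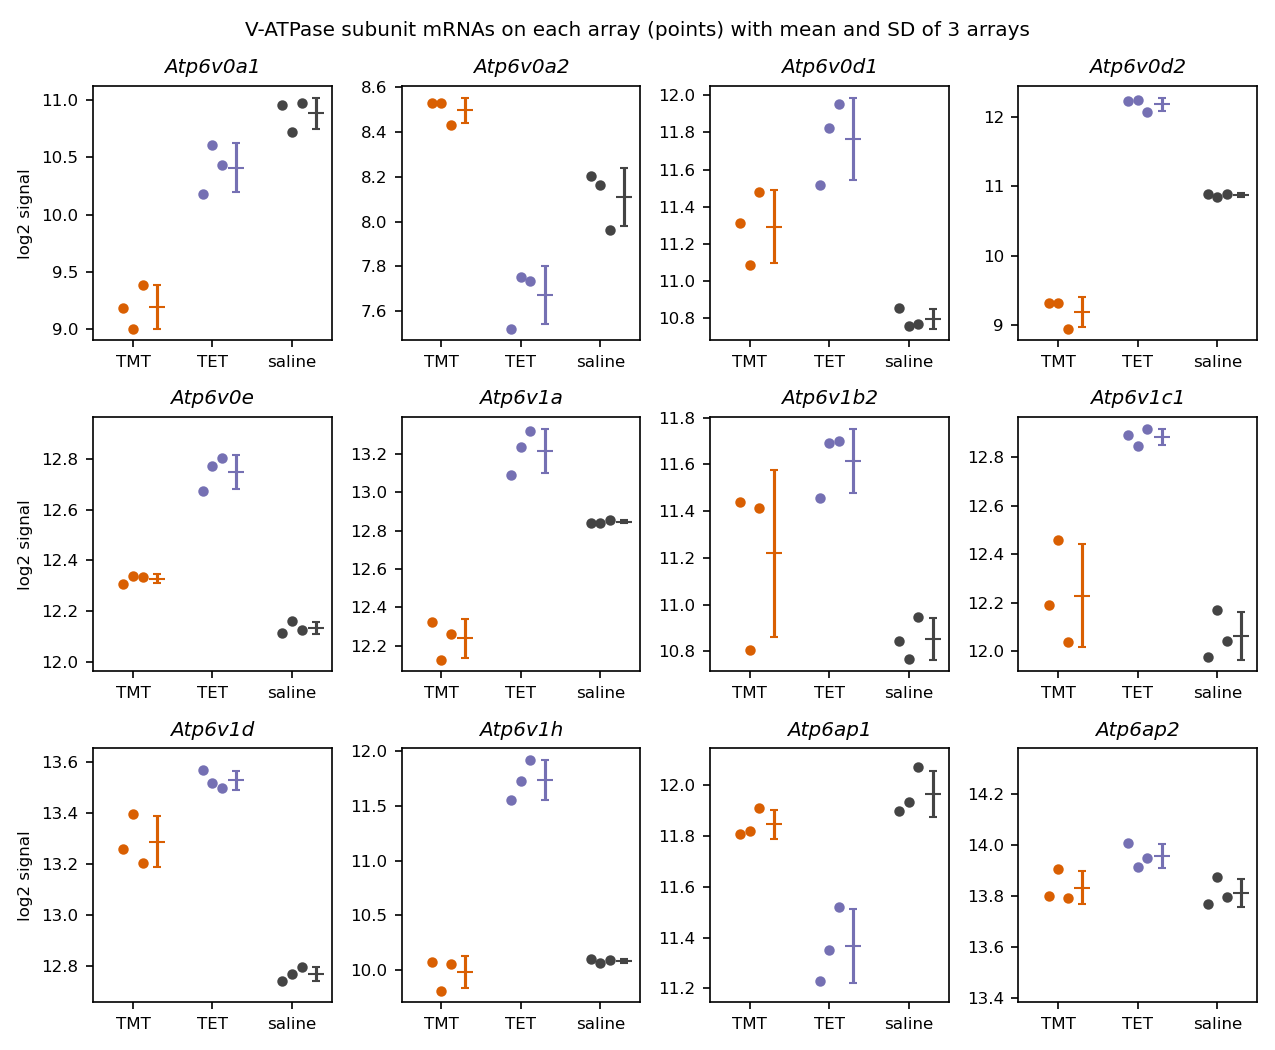
Log2 signal of single arrays (points) for 12 pump genes, 1 gene a panel with its own vertical axis, in TMT, TET and saline, with the mean and SD of the 3 arrays of each group. The TMT and TET arrays of Atp6v0d2 and Atp6v1a lie on opposite sides of the saline arrays.

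In the V0 sector the d subunits cap the rotor ring and join it to V1. Atp6v0d2, an isoform known from osteoclasts, where it is needed for cell fusion, had the largest difference between the compounds. It read 9.33, 9.32 and 8.95 in TMT, 12.23, 12.24 and 12.07 in TET, and 10.89, 10.85 and 10.89 in saline. No group overlapped another. It was 3.20-fold lower in TMT (log2 -1.68, SE 0.11, adjusted p = 2.84e-06) and 2.46-fold higher in TET (log2 1.30, SE 0.11, adjusted p = 8.37e-06). The difference between TET and TMT was 2.98, or 7.88-fold (SE 0.11, adjusted p = 3.79e-08). A further probe set gave -1.74 in TMT and 0.82 in TET. Its paralog Atp6v0d1, present in nearly all cells, read 11.31, 11.09 and 11.48 in TMT, 11.52, 11.82 and 11.95 in TET, and 10.86, 10.76 and 10.77 in saline. It was higher in both, 1.41-fold in TMT (log2 0.50, SE 0.13, adjusted p = 0.0174) and 1.96-fold in TET (log2 0.97, SE 0.13, adjusted p = 0.000181). The TMT call ended without TMT replicate 1 (adjusted p = 0.0580), TMT replicate 3 (0.0707), saline replicate 2 (0.0604) or saline replicate 3 (0.0598).

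Of the 8 osteoclast markers all were measured and 4 were below the median level. Their summed linear signals were 1584 to 1881 in TMT, 2075 to 2543 in TET and 2088 to 2309 in saline. Acp5 (0.55) and Oscar (0.80) were higher in TET than in saline, and Dcstamp (-1.32), Nfatc1 (-1.38) and Itgb3 (-0.59) were lower. In TMT Oscar (0.35) was higher and Dcstamp (-1.25) and Itgb3 (-1.11) were lower. Their part in the values of Atp6v0d2 was not tested.

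The a subunits carry the proton half-channels and direct the pump to its membrane. Atp6v0a1 read 9.19, 9.0 and 9.38 in TMT, 10.18, 10.61 and 10.44 in TET, and 10.96, 10.72 and 10.97 in saline. Every array of both compounds lay below saline. It was 3.24-fold lower in TMT (log2 -1.69, SE 0.14, adjusted p = 8.99e-06) and 1.39-fold lower in TET (log2 -0.47, SE 0.14, adjusted p = 0.0163). All 4 probe sets of Atp6v0a1 were lower in TMT, with differences of -1.83 to -1.0. The TET call ended with cyclic loess (-0.22, adjusted p = 0.193), and without TET replicate 1 (adjusted p = 0.0524), saline replicate 1 (0.0573) or saline replicate 3 (0.0595).

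Atp6v0a2, an isoform found in the Golgi and endosomes, went the other way in TMT. It read 8.53, 8.53 and 8.43 in TMT, 7.52, 7.76 and 7.74 in TET, and 8.20, 8.16 and 7.96 in saline. The TMT arrays were all above saline and the TET arrays all below. It was 1.31-fold higher in TMT (log2 0.39, SE 0.10, adjusted p = 0.0163) and 1.35-fold lower in TET (log2 -0.44, SE 0.10, adjusted p = 0.00494). The TMT call ended without TMT replicate 1 (adjusted p = 0.0606) or saline replicate 3 (0.0769), and the TET call with quantile normalization applied again (-0.26, adjusted p = 0.0545) or cyclic loess (-0.19, adjusted p = 0.145). The difference between TET and TMT, -0.82 (SE 0.10, adjusted p = 8.13e-05), passed in all 19 alternatives.

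Atp6v0e, a small V0 subunit, read 12.31, 12.34 and 12.34 in TMT, 12.67, 12.77 and 12.80 in TET, and 12.12, 12.16 and 12.13 in saline. It was 1.53-fold higher in TET (log2 0.61, SE 0.08, adjusted p = 0.000115), and its difference in TMT was 0.19 (adjusted p = 0.102). Atp6v0b, a subunit of the rotor ring, differed by 0.21 in TMT and 0.06 in TET and was not called. Atp6v0a4, the kidney isoform of a, was dim and not called, at 4.18, 4.10 and 4.25 in TMT, 4.18, 4.37 and 4.16 in TET, and 4.07, 4.08 and 4.25 in saline. Atp6v0e2, a paralog of Atp6v0e whose probe set had the lowest signal of the pump in saline, read 3.29, 3.33 and 3.21 in TMT, 3.35, 3.35 and 3.48 in TET, and 3.39, 3.36 and 3.33 in saline and was not called. The accessory protein Atp6ap1, which helps V0 assemble, read 11.81, 11.82 and 11.91 in TMT, 11.23, 11.35 and 11.52 in TET, and 11.90, 11.93 and 12.07 in saline, and was 1.51-fold lower in TET (log2 -0.60, SE 0.10, adjusted p = 0.000640). Atp6ap2, the (pro)renin receptor, read 13.80, 13.91 and 13.79 in TMT, 14.01, 13.92 and 13.95 in TET, and 13.77, 13.88 and 13.80 in saline, and differed by 0.02 in TMT and 0.14 in TET, with upper 95% bounds of 0.20 and 0.33. That probe set ends in _x_at, a class of probes that may also read related transcripts. A further Atp6ap2 probe set was higher in TET by 0.46 (adjusted p = 0.0247). The mean over its probe sets gave 0.26 in TET (adjusted p = 0.0115), and trended robust moderation called the value of 0.14 (adjusted p = 0.0322), so whether Atp6ap2 passed in TET depended on these choices.

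Opposite directions under the compounds were called for 3 members: Atp6v0d2 and Atp6v1a were lower in TMT and higher in TET, and Atp6v0a2 was higher in TMT and lower in TET. In all, 8 members passed in both comparisons with saline. Atp6v0d1, Atp6v1d and Ctsz were higher in both, and Atp6v0a1 and Ctsf were lower in both. The same counts over all genes were not made, and both comparisons share the saline arrays. These counts are therefore no result about the members as a set. Groups of arrays did not overlap for 54.5% of the pump genes in TMT against saline and for 72.7% in TET against saline, beside 44.7% and 58.7% of all genes. Among bright genes the pump shares were 56.2% in TMT and 93.8% in TET, beside 66.6% and 73% of all bright genes. In TMT the bright pump genes thus lay below the share of all bright genes.

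The promoters of pump and cathepsin genes are known to hold E-box motifs that MiT/TFE factors such as TFEB bind, so 4 promoters with the longer motif are shown, beside that of Atp6v0a1, the pump gene with the largest fall in TMT, as 1 example without either motif. The sequences are from RefSeq (GRCm38.p6) and run from 250 bases before to 50 bases after the annotated start, on the strand of the gene. They are Atp6v1a at chr16:44139210-44139509 (minus strand), Atp6v0d1 at chr8:105566015-105566314 (minus strand), Atp6v0e at chr17:26676146-26676445 (plus strand), Ctsd at chr7:142387778-142388077 (minus strand) and Atp6v0a1 at chr11:101010148-101010447 (plus strand). Capitals mark TCACGTGA.
Atp6v1a: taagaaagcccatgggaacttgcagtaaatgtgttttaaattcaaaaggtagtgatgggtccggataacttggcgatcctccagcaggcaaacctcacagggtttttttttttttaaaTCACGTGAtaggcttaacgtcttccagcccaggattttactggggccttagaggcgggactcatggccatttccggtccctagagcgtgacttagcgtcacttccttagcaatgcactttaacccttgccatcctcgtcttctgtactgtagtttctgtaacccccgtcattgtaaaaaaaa
Atp6v0d1: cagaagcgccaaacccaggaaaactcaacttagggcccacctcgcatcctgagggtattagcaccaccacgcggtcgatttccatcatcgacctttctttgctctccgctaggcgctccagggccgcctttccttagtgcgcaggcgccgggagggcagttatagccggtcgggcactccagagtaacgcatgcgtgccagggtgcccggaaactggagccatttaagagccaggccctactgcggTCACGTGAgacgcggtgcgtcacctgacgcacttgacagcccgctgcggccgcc
Atp6v0e: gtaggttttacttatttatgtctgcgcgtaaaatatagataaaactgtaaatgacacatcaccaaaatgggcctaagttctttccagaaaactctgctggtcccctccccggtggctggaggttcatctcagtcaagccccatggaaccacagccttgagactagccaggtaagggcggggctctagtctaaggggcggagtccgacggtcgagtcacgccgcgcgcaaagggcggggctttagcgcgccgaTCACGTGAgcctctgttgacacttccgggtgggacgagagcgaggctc
Ctsd: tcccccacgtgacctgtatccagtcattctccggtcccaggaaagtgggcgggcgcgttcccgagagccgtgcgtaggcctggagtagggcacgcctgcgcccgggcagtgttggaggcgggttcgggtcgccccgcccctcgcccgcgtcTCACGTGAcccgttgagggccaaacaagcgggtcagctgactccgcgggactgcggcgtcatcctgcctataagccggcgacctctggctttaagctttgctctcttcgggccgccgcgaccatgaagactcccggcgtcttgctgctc
Atp6v0a1: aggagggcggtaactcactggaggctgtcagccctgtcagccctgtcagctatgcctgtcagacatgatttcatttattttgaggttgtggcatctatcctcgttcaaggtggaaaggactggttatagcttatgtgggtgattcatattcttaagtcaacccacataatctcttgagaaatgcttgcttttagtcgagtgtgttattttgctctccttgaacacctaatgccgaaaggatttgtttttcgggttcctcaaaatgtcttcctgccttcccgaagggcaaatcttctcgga

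The motif lay at different places in these windows. Counted from the annotated start, its first base was at -132 in Atp6v1a, at -4 in Atp6v0d1, at 3 in Atp6v0e and at -99 in Ctsd. The table held 38 promoters for 35 of the 46 members. Among the members without one were Atp6v0d2, Atp6v1h, Atp6v1c1 and Atp6v1b2, which were higher in TET, and Atp6v0a2, which was lower. The motifs searched were CACGTG and TCACGTGA. Each reads the same on both strands, and the longer one holds the shorter. CACGTG was in 23.7% of the member promoters (9 genes) and in 7.15% of all 32851 promoters. TCACGTGA was in 13.2% of the member promoters (Atp6v0d1, Atp6v0e, Atp6v1a, Ctsa and Ctsd) and in 0.974% of all promoters. Of the 5 genes with TCACGTGA, Atp6v0d1, Atp6v0e and Atp6v1a were higher in TET than in saline and Ctsa and Ctsd were not called. In TMT Atp6v0d1 was higher, Atp6v1a lower and the others not called. Over all genes 27.4% were higher and 23.4% lower in TET, and 14.3% higher and 13.4% lower in TMT. Of the genes with CACGTG alone, Ctsf was lower in both comparisons and Atp6v0b, Ctsl and Lamp1 were not called in either. The genes with neither motif went both ways. Atp6v1d and Ctsz were higher in both, Ctsk and Atp6v1e2 higher in TET, and Ctsc and Lamp2 higher in TMT. Atp6v0a1 was lower in both, and Atp6ap1 and Ctso were lower in TET. A link between motif and call was not tested. A match describes the letters of the window and is no measured binding.

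In TMT against saline 2 of 18 were higher and 1 lower, or 16.7% beside the 27.8% of all genes. In TET against saline 2 were higher and 2 lower, or 22.2% beside the 50.8% of all genes. These counts depended on the processing. The TMT count of 3 was 9 with array weights and 5 without TMT replicate 3 or TET replicate 1. Array weights also raised the calls over all genes in TMT, from 2608 higher and 2441 lower to 4561 and 4195. The TET count of 4 was 8 with the mean over the probe sets of a gene, 7 with trended robust moderation and 2 without saline replicate 2. Without that array the TET calls over all genes fell from 9247 to 7540. The median log2 difference over the 18 cathepsins was 0.00 in TMT and -0.02 in TET. Of the 18, 7 (Ctsf, Ctsg, Ctsj, Ctsm, Ctsq, Ctsr and Ctsw) were below the median level, and Ctsj, Ctsm, Ctsq and Ctsr belong to a family known from the rodent placenta. Ctsj, whose probe set had the lowest signal, read 2.60, 2.54 and 2.54 in TMT, 2.55, 2.53 and 2.56 in TET, and 2.49, 2.39 and 2.37 in saline and was not called. Among the 11 bright cathepsins 2 were higher and none lower in TMT, and 2 were higher and 1 lower in TET. That is 18.2% and 27.3% in either direction, beside 46.2% and 64.9% of all bright genes. Ctsk is 1 of the 2 higher in TET, and it counts as bright only through its TET arrays. Its means were 8.05 in TET, 6.63 in TMT and 6.74 in saline, with the median level at 6.82. The bright count in TET is therefore not independent of the TET level of Ctsk.

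**Figure D3:**
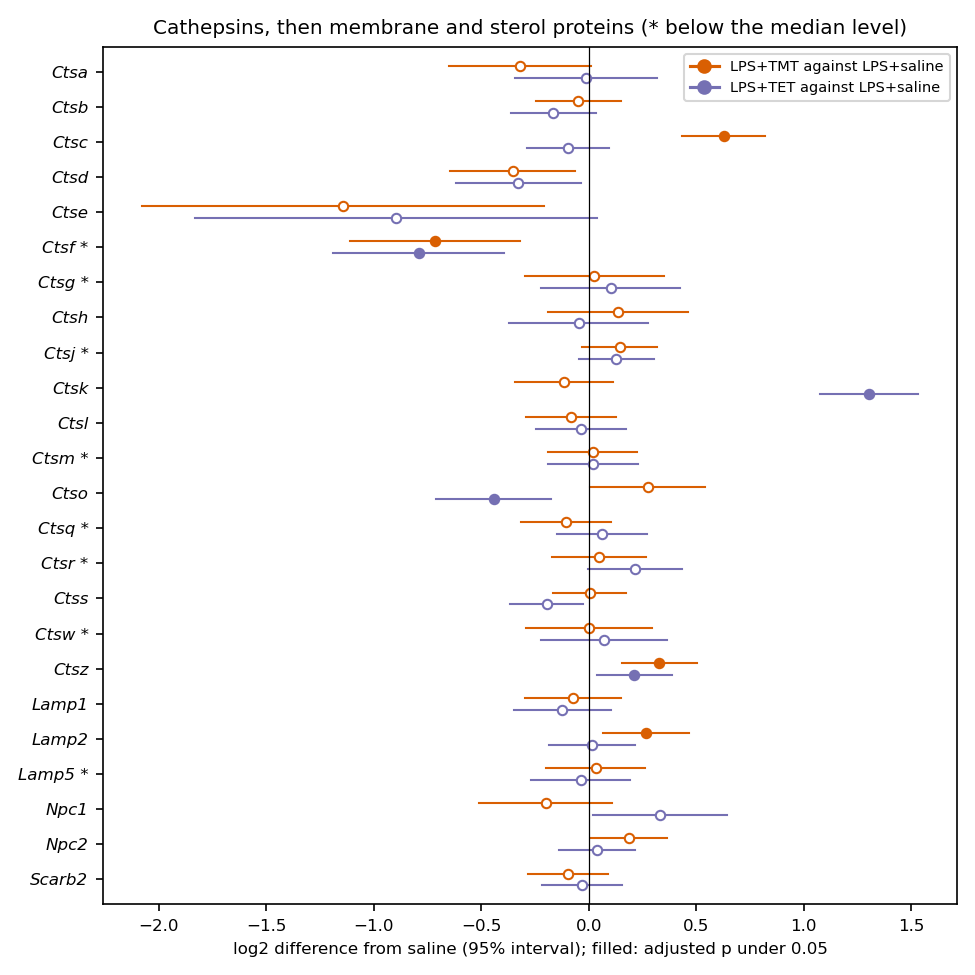
Log2 differences from saline (horizontal axis) of the 18 cathepsins and the 6 membrane and sterol proteins (rows) in TMT and in TET, with 95% intervals of the limma fit, filled points at an adjusted p under 0.05 and asterisks on genes below the median level. Ctsk stands at 1.30 under TET, Ctsc at 0.63 under TMT, and most intervals cross 0.

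Ctsk, the collagen-degrading protease of osteoclasts, had the largest rise. It read 6.70, 6.73 and 6.46 in TMT, 7.92, 8.16 and 8.06 in TET, and 6.74, 6.75 and 6.74 in saline. The TET arrays stood apart, and its TMT and saline arrays lay below the median level of all genes. It was 2.47-fold higher in TET (log2 1.30, SE 0.10, adjusted p = 3.94e-06), and its difference in TMT was -0.11 (95% interval -0.34 to 0.12). The part of osteoclast markers, whose values are given beside Atp6v0d2, was not tested.

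Ctsc, which trims and activates granule serine proteases, read 13.64, 13.48 and 13.64 in TMT, 12.78, 12.90 and 12.90 in TET, and 12.91, 13.00 and 12.97 in saline. On this probe set it was 1.54-fold higher in TMT (log2 0.63, SE 0.09, adjusted p = 0.000316), and it differed by -0.10 in TET (adjusted p = 0.370). Both further probe sets of Ctsc were lower in each comparison, with differences of -0.70 and -0.58 in TMT and of -2.93 and -1.66 in TET. The brighter of them read 10.36, 10.47 and 10.36 in TMT, 7.96, 8.01 and 8.53 in TET, and 10.97, 11.16 and 11.16 in saline. Which transcripts each probe set reads is not given in the sources used here. With the mean over the probe sets Ctsc differed by -0.22 in TMT (adjusted p = 0.105) and was lower in TET by -1.56 (adjusted p = 2.64e-07). The size and the call in TET thus depended on the probe set, while every probe set differed downward there. No direction for Ctsc in TMT therefore held across its probe sets.

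Ctsz, a carboxypeptidase, read 14.03, 13.97 and 14.03 in TMT, 13.84, 13.90 and 13.94 in TET, and 13.71, 13.66 and 13.67 in saline. It was 1.26-fold higher in TMT (log2 0.33, SE 0.08, adjusted p = 0.00910) and 1.16-fold higher in TET (log2 0.21, SE 0.08, adjusted p = 0.0421). The TET call passed in 5 of 19 alternatives. Ctso, a little studied cysteine cathepsin, read 10.59, 10.84 and 10.60 in TMT, 10.10, 9.96 and 9.82 in TET, and 10.22, 10.55 and 10.43 in saline. It was 1.36-fold lower in TET (log2 -0.44, SE 0.12, adjusted p = 0.0117), which ended without saline replicate 2 (adjusted p = 0.0529) and with cyclic loess (-0.20, adjusted p = 0.257) or quantile normalization applied again (-0.31, adjusted p = 0.0872). Ctsf, dim in all groups, was lower in both, by -0.71 in TMT (adjusted p = 0.0122) and -0.79 in TET (adjusted p = 0.00420), and with the mean over its 2 probe sets the TMT difference was -0.35 (adjusted p = 0.0528).

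The main digestive cathepsins were not called on their brightest probe sets. Ctsb, the protease most often measured after lysosomal rupture, read 14.27, 14.08 and 14.31 in TMT, 14.05, 14.10 and 14.16 in TET, and 14.28, 14.25 and 14.27 in saline, with a difference of -0.05 in TMT (95% interval -0.24 to 0.15) and -0.16 in TET (-0.36 to 0.03). The highest signals on the arrays were 14.62 to 14.79. The other probe sets of Ctsb went both ways: of the 5, one was called lower in both comparisons (-0.68 in TMT and -0.75 in TET) and the dimmest was called higher in both (0.63 in TMT and 1.72 in TET). Ctsl differed by -0.08 in TMT (-0.29 to 0.13) and -0.04 in TET (-0.24 to 0.17), and Ctss, which trims the invariant chain of MHC class II, by 0.01 in TMT (-0.16 to 0.18) and -0.19 in TET (adjusted p = 0.0561). Ctsd, the aspartic protease, read 13.40, 13.06 and 13.52 in TMT, 13.15, 13.46 and 13.44 in TET, and 13.67, 13.65 and 13.72 in saline. All Ctsd arrays of both compounds lay below saline, and the differences of -0.35 in TMT (adjusted p = 0.0734) and -0.33 in TET (adjusted p = 0.0584) did not pass.

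Ctse, another aspartic protease, read 7.17, 6.53 and 7.55 in TMT, 6.19, 7.77 and 8.04 in TET, and 8.25, 8.08 and 8.34 in saline. Every treated array of Ctse lay below saline, with differences of -1.14 in TMT (adjusted p = 0.0708) and -0.90 in TET (adjusted p = 0.0996), while a dimmer probe set passed at -1.10 in TMT and -0.98 in TET. Ctsa, which protects neuraminidase and galactosidase, read 12.02, 11.62 and 12.27 in TMT and 12.35, 12.26 and 12.26 in saline, a difference of -0.32 that did not pass (adjusted p = 0.152). Ctsa differed by -0.01 in TET, while its dimmer probe set was higher in TET by 1.41 and the mean of both by 0.70 (adjusted p = 0.00135). Ctsh, an aminopeptidase, differed by 0.14 in TMT (adjusted p = 0.587) and -0.05 in TET (adjusted p = 0.808). For the 24 members with several probe sets, opposite calls within a gene were found for Ctsb and Ctsc in TMT and for Ctsb in TET.

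**Figure D4:**
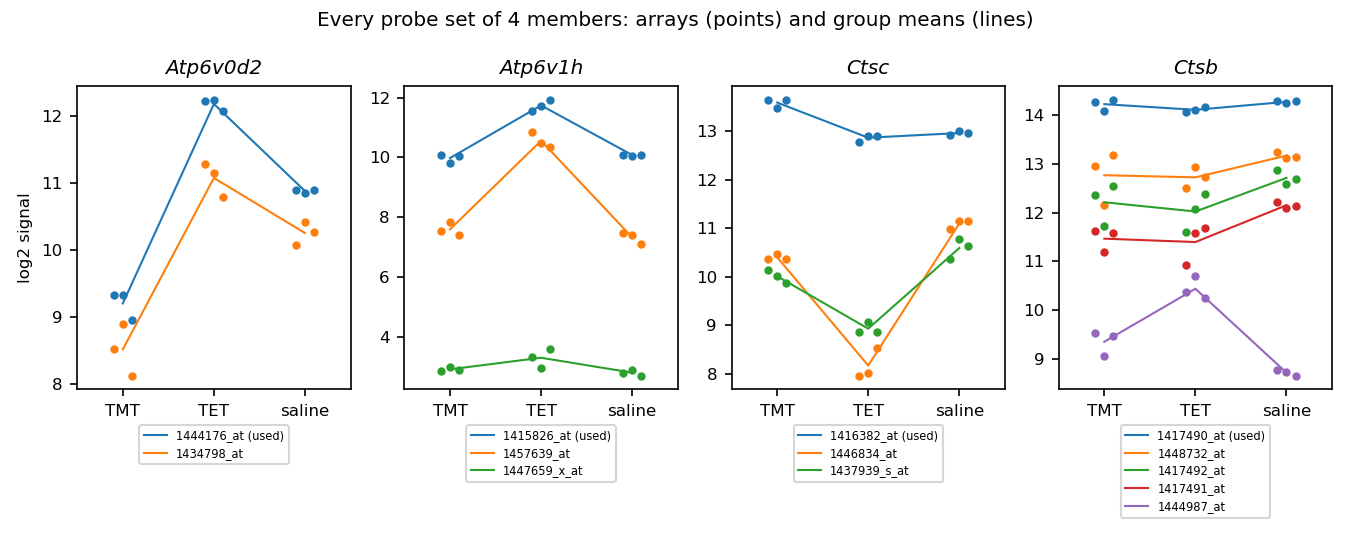
Log2 signal (vertical axis) of every probe set of Atp6v0d2, Atp6v1h, Ctsc and Ctsb on single arrays (points) in TMT, TET and saline, with lines through the group means. The lines of Atp6v0d2 run alike, the Ctsc probe set used lies highest in TMT while both others lie highest in saline, and the dimmest Ctsb probe set lies highest in TET.

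Of the 6 membrane and sterol proteins, 1 passed in TMT against saline (16.7%, beside 27.8% of all genes) and 0 passed in TET against saline (limma; beside 50.8% of all genes). At an unadjusted p under 0.05, 1 passed in TET (Npc1), beside 10396 of all 18193 genes. Npc1 passed the adjusted threshold in 5 of 19 alternatives. These were the fits without TMT replicate 2 or TET replicate 3, and with quantile normalization applied again, cyclic loess or array weights. Lamp2, which also serves chaperone-mediated autophagy, read 12.79, 12.92 and 12.69 in TMT, 12.60, 12.57 and 12.48 in TET, and 12.47, 12.56 and 12.56 in saline. It was 1.2-fold higher in TMT (log2 0.27, SE 0.09, adjusted p = 0.0495), a call that passed in 9 of 19 alternatives. Lamp1 read 13.55, 13.38 and 13.67 in TMT, 13.36, 13.53 and 13.55 in TET, and 13.66, 13.55 and 13.60 in saline, so its groups overlapped, with a difference of -0.07 in TMT (95% interval -0.30 to 0.15) and -0.12 in TET (-0.35 to 0.10). Scarb2 (LIMP-2), which carries glucocerebrosidase to lysosomes, differed by -0.10 in TMT (-0.28 to 0.09) and -0.03 in TET (-0.22 to 0.16). Its other probe set was lower in TET (-1.03, adjusted p = 0.00918), and with the mean of both Scarb2 was lower in TET (-0.53, adjusted p = 0.0133).

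Npc1 and Npc2 pass cholesterol out of the lysosome. Npc1 read 9.54, 9.25 and 9.65 in TMT, 9.94, 10.28 and 9.82 in TET, and 9.70, 9.60 and 9.74 in saline. Its difference of 0.33 between TET and saline did not pass (adjusted p = 0.0702), and its difference of 0.53 between TET and TMT did (SE 0.14, adjusted p = 0.00920). Npc2 differed by 0.19 in TMT (adjusted p = 0.112) and 0.04 in TET (adjusted p = 0.711), while the dimmest of its 4 probe sets was lower in TET (-1.64). Lamp5 was dim in every group and was not called.

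A list of genes for assembly of the pump or otherwise associated with it lay outside the symbol rule. The list also named Tcirg1, which is itself a V0 subunit (a3), so the V0 counts above leave that subunit out. Of its 12 measured genes, 4 were higher and 3 lower in TMT than in saline, and 2 were higher and 6 lower in TET. That is 58.3% in TMT and 66.7% in TET, beside 27.8% and 50.8% of all genes and 46.2% and 64.9% of all bright genes. The TET share is close to that of bright genes. Tmem199 and Ccdc115, which act in V-ATPase assembly in the endoplasmic reticulum, were higher in TMT by 1.23 (adjusted p = 1.61e-05) and 0.99 (adjusted p = 7.73e-05). In TET Tmem199 was higher by 1.23 (adjusted p = 9.28e-06) and Ccdc115 lower (-0.43, adjusted p = 0.00849). Wdr7, a member of the rabconnectin complex that helps the sectors join, was lower in TMT (-0.51, adjusted p = 0.0176) and higher in TET (1.03, adjusted p = 0.000136). Ncoa7, a TLDc protein that binds the pump, was lower in TMT (-1.07, adjusted p = 0.000108) and in TET (-1.30, adjusted p = 1.68e-05).

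Of 35 measured soluble hydrolases and activators other than cathepsins, 5 were higher and 13 lower in TMT than in saline (median log2 difference -0.20), and 6 were higher and 17 lower in TET (median -0.44). That is 51.4% in TMT and 65.7% in TET, beside 27.8% and 50.8% of all genes and 46.2% and 64.9% of all bright genes. The TET share is close to that of bright genes. The lower hydrolases made up 37.1% in TMT and 48.6% in TET, beside 22.1% and 41.3% of all bright genes. The TMT count of 18 was 9 without saline replicate 1 and 9 without saline replicate 3. Over all genes the TMT calls fell from 5049 to 3971 without saline replicate 1. Lipa, the acid lipase, was 2.92-fold lower in TMT (log2 -1.55, adjusted p = 1.21e-06) and 1.63-fold lower in TET (log2 -0.71, adjusted p = 0.000129). Gla, alpha-galactosidase, was 4.42-fold higher in TET (log2 2.14, adjusted p = 6.98e-08) and 1.33-fold higher in TMT (log2 0.41, adjusted p = 0.00793). Ids, a sulfatase of glycosaminoglycan breakdown, was 3.09-fold lower in TET (log2 -1.63, adjusted p = 1.53e-07) and 1.2-fold lower in TMT (log2 -0.26, adjusted p = 0.0352). Acp2, an acid phosphatase, was higher in TMT (1.05, adjusted p = 0.000307) and lower in TET (-1.10, adjusted p = 0.000141).

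Of 25 measured lysosomal channels and transporters, 10 were higher and 5 lower in TMT, and 9 were higher and 7 lower in TET. That is 60% in TMT and 64% in TET, beside the same 27.8% and 50.8% of all genes and 46.2% and 64.9% of all bright genes. The TET share is close to that of bright genes. Ctns, the cystine exporter, was higher by 0.64 in TMT (adjusted p = 0.00220) and 1.36 in TET (adjusted p = 8e-06), and Tpcn1, a cation channel, was lower in TMT (-0.93, adjusted p = 0.000623) and in TET (-1.89, adjusted p = 2.8e-06). Of 10 measured inhibitors of lysosomal proteases, 2 were higher and 1 lower in TMT, and 6 were higher and 1 lower in TET. That is 30% in TMT, close to the 27.8% of all genes, and 70% in TET, beside 50.8% of all genes. Among all bright genes the shares were 46.2% and 64.9%. The TET count of 7 was 4 without saline replicate 1 or 3. Cst7, a cystatin directed at cathepsin C, was 2.70-fold higher in TMT (log2 1.43, adjusted p = 9.53e-06) and differed by -0.10 in TET (adjusted p = 0.478). Serpinb6a, an intracellular serpin, was 3.00-fold lower in TMT (log2 -1.59, adjusted p = 7.06e-06) and 1.35-fold lower in TET (log2 -0.44, adjusted p = 0.0143).

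Of 23 genes for the sorting of hydrolases to lysosomes, 9 were higher and 3 lower in TMT, and 6 were higher and 7 lower in TET. That is 52.2% in TMT, beside 27.8% of all genes, and 56.5% in TET, close to the 50.8% of all genes. Of all bright genes 46.2% passed in TMT and 64.9% in TET. The TMT count of 12 was 6 without saline replicate 1 and 7 without saline replicate 3, while the calls over all genes fell from 5049 to 3971 without saline replicate 1. Sort1, the sorting receptor sortilin, was 3.83-fold lower in TMT (log2 -1.94, adjusted p = 2.13e-06) and 2.4-fold lower in TET (log2 -1.26, adjusted p = 1.98e-05). Vps18, a core subunit of the tethering complexes of late endosomes, was 6.99-fold higher in TET (log2 2.81, adjusted p = 2.45e-07) and 1.55-fold higher in TMT (log2 0.63, adjusted p = 0.00853).

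**Figure D5:**
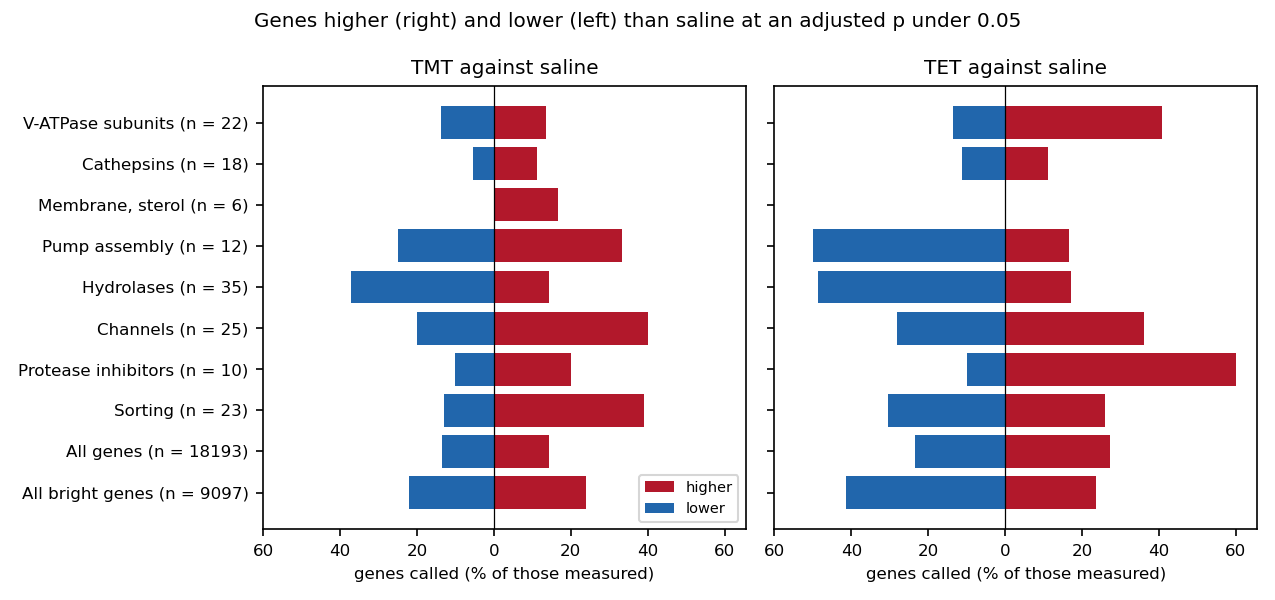
Percent of the genes of each list at an adjusted p under 0.05 that were higher (bars to the right of 0) or lower (to the left), in TMT against saline and in TET against saline, with all 18193 genes and the 9097 bright genes in the last rows. The pump bars for TMT (13.6% higher and 13.6% lower) are close to those of all genes, and the cathepsin bars are shorter than those of all genes in both comparisons.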

How the data were processed

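RNA of 9 samples was hybridised to Affymetrix mouse arrays. Per the labels' protocols, amplification started from 50 ng of RNA (Nugen WT-Ovation Pico). Per the submitters' processing notes, the deposited log2 signals were made with the tools RMA and affy, of no named version. The base of the logarithm was taken from the values, and the dose unit from the series design. No label gives a scan or hybridisation batch. The table of 45037 probe sets was used as deposited. By the platform annotation 34945 probe sets named 1 gene, 932 several and 9160 none, and those naming several or none were left out. The members had 92 probe sets: 24 had several and 8 rest on a probe set ending in _x_at or _s_at, which may bind related transcripts.

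Tests used limma 3.58.1, run under R 4.3.3 (lmFit and eBayes, 1 mean per group over all 9 arrays, 6 residual and 3.99 prior degrees of freedom, two-sided, Benjamini-Hochberg over 18193 genes, called at an adjusted p under 0.05). SE is the moderated standard error. Probe set differences come from the same fit over 34945 probe sets. With 3 arrays a group, the smallest p an exact permutation test allows is 0.1. The procedure was tested on simulated data. Array values are given for called bright members, members called in opposite directions, paralogs of called subunits, and the pump and cathepsin genes with the highest and lowest saline signal, and those of Ctsd, Ctse, Ctsa, Lamp1 and Npc1 were added. Genes outside the members come from up to 4 per list and comparison with the smallest adjusted p. The members and lists were chosen with earlier results of these data known. The replicate numbers of the titles did not pair the samples, so no block was used.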

Additional observations from a re-analysis of the deposited data

How the results depend on the processing

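The number of arrays limits the precision. Among the called members, 5 of 10 in TMT against saline, 10 of 16 in TET against saline and 14 of 18 in TET against TMT passed in every alternative that gave a value for the gene. There were 19, or 18 for genes below the median level, which the fit of bright genes leaves out, and for genes with no probe set outside those ending in _x_at or _s_at. The alternatives left out each of the 9 arrays in turn and changed 10 other choices. Over those 10 choices, 197 of 220 counts stayed within 1.5 times the reported count. The cause of the changes below was not tested, except that fewer genes were tested with bright genes alone. Same-numbered samples correlated at -0.15 to 0.31 in their deviations from the group means, so the numbers were not taken as pairs. With the replicate block 4859 genes were called in TMT against saline, 8956 in TET against saline and 9119 in TET against TMT, the pump counts were 6, 12 and 11, and the membrane and sterol counts were 0 in TMT and 1 in TET against TMT. Array weights gave 8756 called genes in TMT, with 11 pump genes and 9 cathepsins. Bright genes alone gave 6066 called genes in TET and 6270 in TET against TMT.

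For the cathepsins, the mean over the probe sets of a gene gave 8 calls in TET against saline, and trended robust moderation 7. For the membrane and sterol proteins in TMT, the count was 0 with quantile normalization applied again, with each array centred on its median and without probe sets ending in _x_at or _s_at, and 2 with array weights or trended robust moderation. In TET it was 1 with quantile normalization, cyclic loess or array weights and 2 with the mean over probe sets. In TET against TMT it was 1 with quantile normalization or the 6 arrays alone and 4 with the mean over probe sets. The protease inhibitors in TET numbered 4 with bright genes alone or median centring.

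Leaving out 1 array gave 3 to 5 called cathepsins in TMT (5 without TMT replicate 3 or TET replicate 1) and 2 to 6 in TET (2 without saline replicate 2, 6 without TET replicate 3). It gave 0 to 1 membrane and sterol proteins in each comparison with saline and 1 to 2 in TET against TMT. In TMT the count was 0 without TMT replicate 1 or 2, TET replicate 2 or any saline array, in TET it was 1 without TMT replicate 2 or TET replicate 3, and in TET against TMT it was 2 without TMT replicate 3 or TET replicate 1 and 1 without any other array. The hydrolases in TMT numbered 9 to 20, the inhibitors in TET 4 to 7 and the sorting genes in TMT 6 to 14. The calls over all genes moved too, to 3971 to 5522 in TMT (5049 as reported) and to 7540 to 9372 in TET (9247 as reported). Pump counts were 4 to 7 in TMT and 11 to 13 in TET. Among differences called as reported or with the mean over probe sets, 5 changed sign with that mean: Ctsc in TMT (-0.22, adjusted p = 0.105), Atp6v0b in TET (-0.23, adjusted p = 0.0492), Ctsa in TET (0.70, adjusted p = 0.00135), Npc2 in TET (-0.49, adjusted p = 0.00190) and Scarb2 in TET against TMT (-0.44, adjusted p = 0.0313).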

Other observations

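Further lysosomal genes outside the members, with the smallest adjusted p of their lists, had these log2 differences from saline. Neu1, the lysosomal sialidase that works in a complex with Ctsa, was higher in TMT (1.32, adjusted p = 0.000237) and differed by 0.31 in TET (adjusted p = 0.166). Galc, which breaks down galactosylceramide, was lower in TMT (-1.35, adjusted p = 1.33e-05) and in TET (-1.05, adjusted p = 4.39e-05). Slc29a3, a lysosomal nucleoside transporter, was higher in TMT (1.47, adjusted p = 1.66e-05) and in TET (1.24, adjusted p = 3.12e-05). Slc36a1, an amino acid transporter, was higher in TMT (1.65, adjusted p = 3.93e-05) and in TET (1.00, adjusted p = 0.000690). Mcoln3, a calcium channel of endosomes and lysosomes, was lower in TMT (-1.65, adjusted p = 2.8e-05) and in TET (-0.91, adjusted p = 0.000918). Tmem175, a lysosomal potassium and proton channel, was higher in TMT (0.51, adjusted p = 0.0243) and lower in TET (-1.20, adjusted p = 8.5e-05). Serpinb9, a granzyme B inhibitor, was higher in TMT (1.59, adjusted p = 2.97e-06) and in TET (0.78, adjusted p = 0.000206).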
